A study of Mus musculus with 12 samples.

Results

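Tau-seeded mice kept on an acetate-rich diet were compared with mice that had received neither manipulation, to ask what still differed from a healthy hippocampus on ordinary chow. The comparison takes 6 of the 12 libraries, chosen by their labels alone: 3 mice with a tau injection and the acetate diet, and 3 mice with a PBS injection and the control diet. All were C57Bl6/J mice, 6 months old at a unilateral injection, and polyadenylated RNA from the right dorsal hippocampus was sequenced about 6 months later, 24 hours after a remote memory test. The tau acetate-diet mice were given 1 µg of AD tau, the insoluble pathological tau purified from post mortem cortex of people with Alzheimer's disease, and LabDiet chow with 5% sodium acetate. The PBS control-diet mice were given the vehicle and a control chow from TestDiet, which the labels call standard and the study's methods describe as matched in calories. Each of the 6 mice thus had surgery, fear conditioning and recall, and injection and diet changed together between the groups. The other 6 libraries, PBS with the acetate diet and tau with the control diet, each change 1 of these. They show the same genes at the steps between. They also enter the fit, in which all 12 mice share 1 estimate of the spread, and so bear on every p-value.

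Injected pathological tau acts as a template on which endogenous tau misfolds, and the pathology spreads along connected neurons. Acetate is turned into acetyl-CoA by acyl-CoA synthetases, of which ACSS2 works in the neuronal nucleus and supplies histone acetylation. The dorsal hippocampus holds the CA1, CA2 and CA3 pyramidal fields and the dentate gyrus, each with its own marker genes, and lies close to the thalamus, the choroid plexus and the meninges.

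The 12 libraries held 12983233 to 20218340 counts, and 14742 of the 24985 genes of the table were expressed highly enough to be tested. Every mouse carried the label male, but Xist, which is expressed from an inactivated X, had 13583 to 25991 counts in each and 49 Y chromosome genes summed to 0 counts over all 12, so all 12 went against that label alike. On the first principal component, with 20.9% of the variance, the PBS control-diet mice lay at -15.1, -16.3 and -20.2, and the tau acetate-diet mice at -13.1, 3.62 and 4.14, so that tau acetate-diet mouse 1 lay nearest to the controls. Nothing in the labels ties a mouse to a litter or a day, and p-values measure only the spread between these mice.

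Between tau acetate-diet and PBS control-diet mice, 91 genes were higher and 179 lower, 270 in all (edgeR quasi-likelihood test, Benjamini-Hochberg adjusted p below 0.1). These are 1.83% of the genes tested, 0.617% higher and 1.21% lower. At an unadjusted p below 0.05 there were 14.8%, with 6.94% higher and 7.86% lower, and counts at that level in the gene lists are read against these shares. The changes were small: the called genes had a median absolute log2 fold change of 0.28, the smallest was 0.17, and 5 reached 1. Over all genes tested the median log2 fold change was 0.00, and 50.9% lay above 0. In 269 of the 270 the 3 and 3 mice did not overlap, which was so of 19.4% of all genes tested.

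Single mice decided how many genes passed. Without PBS control-diet mouse 3 the test called 1 gene, and without tau acetate-diet mouse 3 it called 0, with a smallest adjusted p of 0.117 and 1464 genes at an unadjusted p below 0.05. Without PBS control-diet mouse 1 there were 75 calls and without tau acetate-diet mouse 2 there were 143. All 270 genes kept their direction and an unadjusted p below 0.05 in each of the 12 fits with 1 mouse left out, and 36 of them, 10 higher and 26 lower, kept their call in each of the 10 other fits. The 1 gene called without PBS control-diet mouse 3 was Luzp2, so that every other call given here rested on both of those mice, and that of Luzp2 on tau acetate-diet mouse 3.

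The calls also followed the base composition of the transcripts. The genes called higher had a median GC content of 54.3%, those called lower 43.2%, and all genes tested 50.2%. With genes ranked by GC content into 5 bins of like size, 110 were called lower and 3 higher in the lowest bin, whereas 6 were lower and 36 higher in the highest. Across 14638 genes the Spearman correlation of a mouse's deviation in log2 CPM (counts scaled to the library's total) with GC content was -0.14, -0.13 and -0.12 in the PBS control-diet mice and 0.27, 0.11 and 0.12 in the tau acetate-diet mice, a description over genes of 1 library at a time. Once the dependence on GC content and on transcript length had been taken out of every library, 54 genes were called, 0.369% of those tested, 16 higher (0.109%) and 38 lower (0.26%), and 52 of them were among the 270. Whether the trend is technical was not tested, and calls lost with the trend removed are given beside the gene lists.

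**Figure D1:**
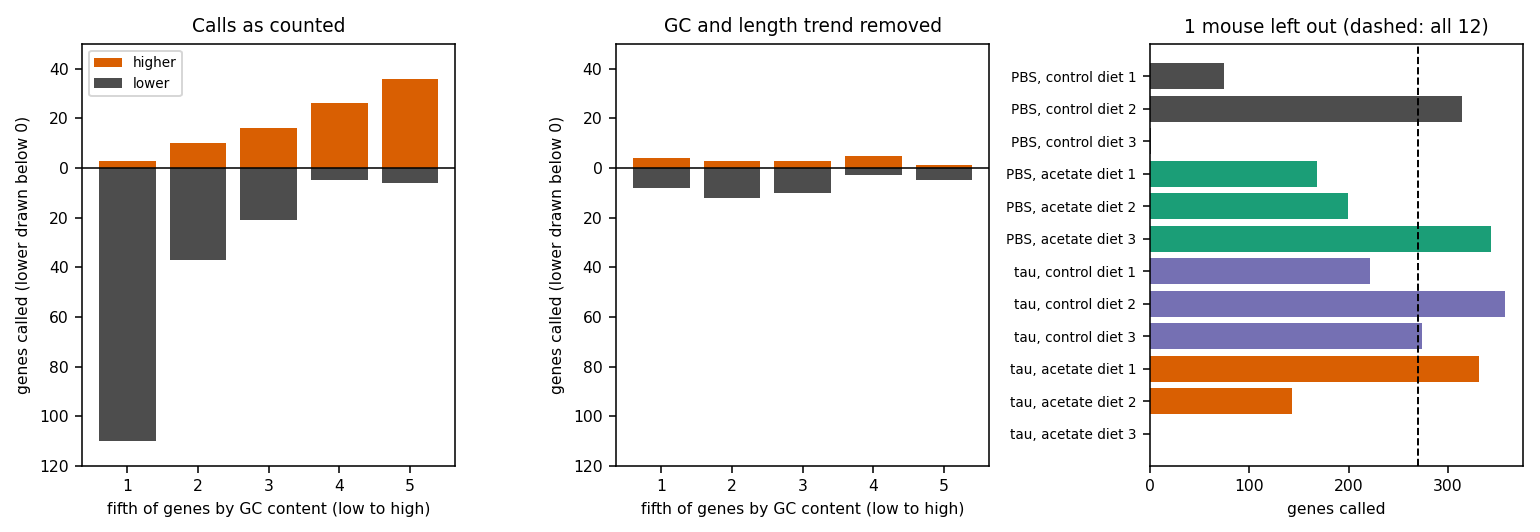
Genes called between tau acetate-diet and PBS control-diet mice in 5 bins of GC content, as counted (left) and with the GC and length trend removed (middle), with higher genes drawn up and lower genes down, and the number called when 1 mouse is left out of the 12 (right, dashed line at 270). Lower calls gathered in the lowest bin, with 110 of 179, and the count fell to 1 without PBS control-diet mouse 3 and to 0 without tau acetate-diet mouse 3.

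Several clock genes were among the higher genes. Of 18 circadian clock genes tested, 3 were called higher and 0 lower, 14 lay above 0, and the median log2 fold change was 0.15, against 0.00 for all genes. With the GC and length trend removed the 3 were still called and the median was 0.15. For acetate after PBS 9 of the 18 were called, all higher, with a median of 0.21, where 8.84% of all genes tested were called. The median was -0.09 for tau on the acetate diet and 0.09 for tau on the control diet, with 0 called in both.

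Bhlhe40 (chr6:108660629-108666925, GRCm38), which encodes a transcriptional repressor tied to the clock, had 86.7, 94.5 and 89.7 CPM in the PBS control-diet mice and 112.5, 133.8 and 136.9 CPM in the tau acetate-diet mice. The groups were well apart, and the log2 fold change was 0.50 ± 0.08 (SE, adjusted p = 0.015). Per2, a core repressor of the clock, had 37.6, 38.9 and 33.4 CPM against 50.9, 47.2 and 55.8 CPM, a log2 fold change of 0.49 ± 0.09 (adjusted p = 0.0266). Its paralogue Per1 had 76.6, 64.6 and 61.1 CPM against 93.3, 86.2 and 94.8 CPM, or 0.44 ± 0.08 on the log2 scale (adjusted p = 0.0284). In all 3 genes the lowest tau acetate-diet mouse stood above the highest PBS control-diet mouse. Such a lack of overlap held in 269 of the 270 called genes. Dbp, a clock output factor, had a log2 fold change of 0.42 (adjusted p = 0.22), and Ciart, a repressor of CLOCK and BMAL1, one of 0.46 (adjusted p = 0.25); neither passed the test. Arntl, which encodes BMAL1, and Clock, which lie on the activating side of the loop, were at -0.18 and -0.11 and did not pass.

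CLOCK and BMAL1 bind E-boxes, and the stretch before the Per1 start is shown because it holds one. It is the 250 bases upstream of 1 of 2 RefSeq starts (GRCm38.p6, chr11:69098699-69098948, plus strand), 5′ to 3′, with CACGTG, the E-box letters, in capitals, first base 166 before the start:
Per1: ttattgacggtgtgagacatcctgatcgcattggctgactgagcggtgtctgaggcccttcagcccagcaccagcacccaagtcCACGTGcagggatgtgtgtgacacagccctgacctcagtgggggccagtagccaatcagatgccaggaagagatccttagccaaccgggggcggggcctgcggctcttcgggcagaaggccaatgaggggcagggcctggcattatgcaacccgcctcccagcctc
Klf15, a Krüppel-like factor gene with clock- and glucocorticoid-driven expression, was also called higher (0.39 ± 0.09, adjusted p = 0.0477) with 27.4, 26.3 and 22.4 CPM against 33.6, 29.9 and 35.9 CPM, was not called with the GC and length trend removed, and was picked out after its values were seen. Its 250 bases (chr6:90462326-90462575, plus strand) hold CACGTG at 228 and at 172 before the start:
Klf15: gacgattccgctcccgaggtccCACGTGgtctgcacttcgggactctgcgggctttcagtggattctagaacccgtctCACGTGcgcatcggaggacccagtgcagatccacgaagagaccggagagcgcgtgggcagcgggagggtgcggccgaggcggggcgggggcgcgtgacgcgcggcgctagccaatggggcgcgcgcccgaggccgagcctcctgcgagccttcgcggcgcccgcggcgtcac
The E-box is common: these letters, which read the same on both strands, stood in 7.58% of the higher genes with a promoter in the RefSeq table, 10.5% of the lower genes, 9.68% of all genes tested and 6.02% of all promoters of that length. A match is a description of letters and not a site in use.

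Genes known as targets of glucocorticoid receptor or FoxO factors moved in the same direction where they passed. Of 18 tested, 4 were called higher and 0 lower, 14 lay above 0, and the median was 0.10. The 4 were Per1, Zbtb16, Bcl6 and Mt1. Zbtb16, a zinc finger transcription factor, had 117.8, 117.1 and 114.8 CPM in the PBS control-diet mice against 142.5, 136.0 and 159.4 CPM (0.32 ± 0.07, adjusted p = 0.0412). Bcl6, a transcriptional repressor, was at 0.41 ± 0.09, with 51.0, 58.6 and 56.0 CPM against 64.4, 74.2 and 82.0 CPM, and the metal-binding Mt1 at 0.26 ± 0.07 (adjusted p = 0.0899). Fbxo32, a muscle-wasting ubiquitin ligase and FoxO target, went the other way without passing, at -0.14 ± 0.09 (adjusted p = 0.529), with 43.3, 42.5 and 41.1 CPM against 38.9, 40.2 and 36.2 CPM. With the GC and length trend removed Zbtb16 and Bcl6 were no longer called. The letters TGTTTAC on either strand, a FoxO motif, stood before 3.03% of the higher, 2.26% of the lower and 2.68% of all genes tested.

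Some heat shock and chaperone genes were lower. Of 27 tested, 5 were called lower and 0 higher, 12 were lower at an unadjusted p below 0.05, 23 lay below 0, and the median was -0.14. Dnaja1, a co-chaperone of HSP70, had 134.4, 139.5 and 148.4 CPM against 110.6, 120.9 and 107.0 CPM, and its log2 level was -0.32 ± 0.06 (adjusted p = 0.0266). Hsp90aa1, the inducible cytosolic HSP90, was at -0.21 ± 0.05 (adjusted p = 0.0648), its partner Chordc1 at -0.27 ± 0.07 (adjusted p = 0.0783) and the HSP110 gene Hsph1 at -0.20 ± 0.05 (adjusted p = 0.0794). Hspa1b, an inducible HSP70 gene, had 11.3, 13.8 and 11.9 CPM against 7.58, 8.65 and 9.31 CPM (-0.54 ± 0.14, adjusted p = 0.0854), and its reads are uncertain, since Hspa1a is a near-identical copy. In each of the 5 genes the groups did not overlap, which was so of 269 of the 270 called genes. With the GC and length trend removed 1 of the 27 was called, Dnaja1, and the median was -0.12. For acetate after PBS 12 of the 27 were called, all lower, with a median of -0.23, where 8.84% of all genes tested were called. The median was 0.07 for tau on the acetate diet and -0.04 for tau on the control diet, with 0 called in both.

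Heat shock factor binds inverted repeats of GAA, and 2 upstream stretches are shown because they hold GAANNTTC, a motif added after the data were seen. The letters in capitals begin 104 before the start of Hspa1b (chr17:34959239-34959488, minus strand) and 124 before 1 of 3 starts of Dnaja1 (chr4:40722218-40722467, plus strand), both from RefSeq on GRCm38.p6:
Hspa1b: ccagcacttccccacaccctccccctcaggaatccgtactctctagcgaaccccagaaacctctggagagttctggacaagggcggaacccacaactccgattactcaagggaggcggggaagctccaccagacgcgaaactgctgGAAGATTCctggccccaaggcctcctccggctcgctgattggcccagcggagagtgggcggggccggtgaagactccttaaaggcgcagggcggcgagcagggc
Dnaja1: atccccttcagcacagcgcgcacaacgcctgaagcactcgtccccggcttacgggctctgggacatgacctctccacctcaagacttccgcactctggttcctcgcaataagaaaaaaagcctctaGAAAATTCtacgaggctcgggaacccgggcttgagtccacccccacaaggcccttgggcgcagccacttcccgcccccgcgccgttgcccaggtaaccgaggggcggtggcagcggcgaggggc
The motif stood before 9.77% of the lower genes, 1.52% of the higher genes and 6.16% of all genes tested.

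**Figure D2:**
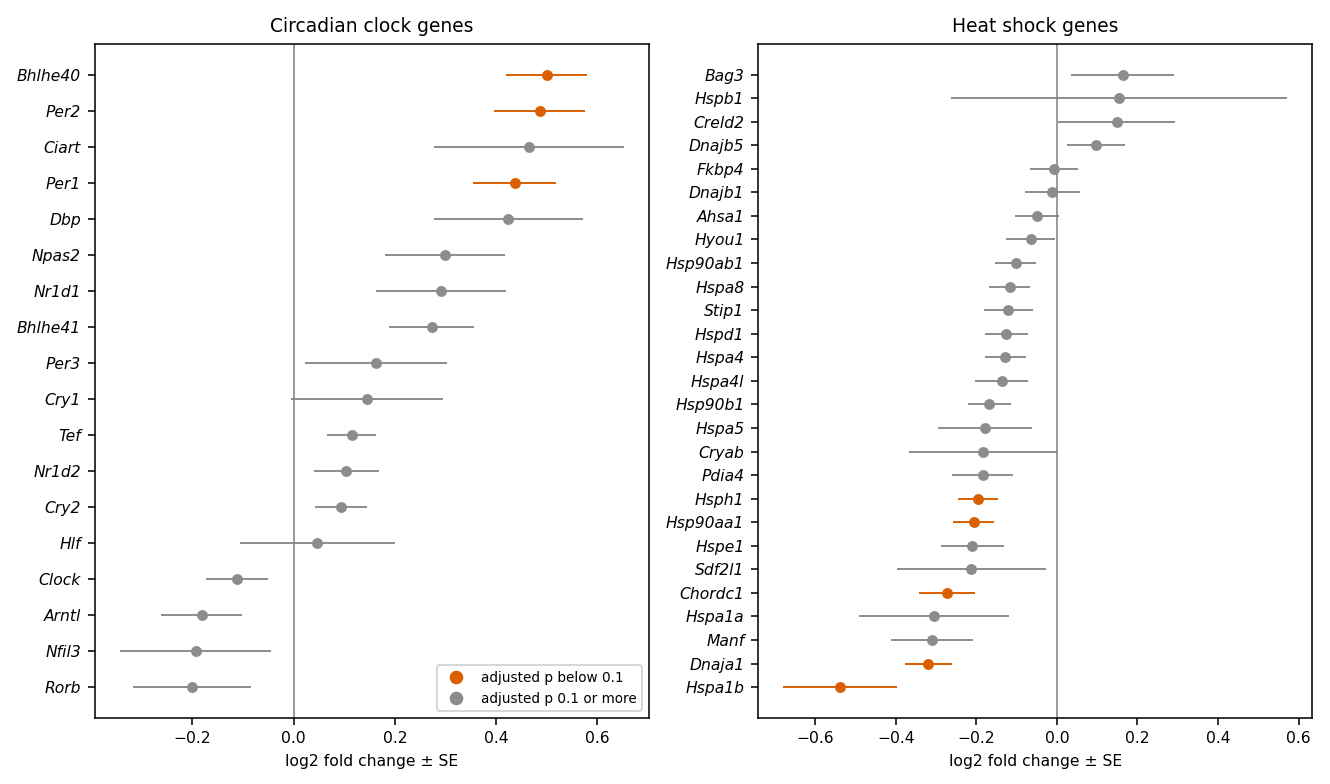
Log2 fold change of tau acetate-diet over PBS control-diet mice for each circadian clock gene (left) and each heat shock or chaperone gene (right), with the standard error of the fit as bars and genes at adjusted p below 0.1 in orange. Bhlhe40, Per2 and Per1 stood at 0.44 to 0.50, and 23 of the 27 chaperone genes lay below 0.

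The higher genes with the smallest p beside the clock genes encode secreted proteins, receptors and signalling proteins. Thbs4 (chr13:92751590-92794818), a matrix thrombospondin, had 19.5, 18.7 and 14.9 CPM in the PBS control-diet mice and 24.1, 30.3 and 30.2 CPM in the tau acetate-diet mice, 1.59-fold higher (log2 0.67 ± 0.11, adjusted p = 0.015). Htr1a, the serotonin 1A receptor, was nearly constant in the controls at 31.4, 31.9 and 31.6 CPM and stood at 37.1, 54.0 and 52.2 CPM in the tau acetate-diet mice (0.59 ± 0.11, adjusted p = 0.0307). Tau acetate-diet mouse 1 was thus the lowest of its group in both, and still above every control. Igfbp4, a binding protein of insulin-like growth factors, had the same order, at 98.8, 133.7 and 128.6 CPM against 82.9, 87.0 and 81.2 CPM (0.52 ± 0.09). Of the others, the transmembrane protein gene Tmem132d was at 0.61 ± 0.12, the guanine nucleotide exchange factor Arhgef3 at 0.28 ± 0.06, the voltage-gated potassium channel Kcnh3 at 0.28 ± 0.06 and the intraflagellar transport gene Ift122 at 0.33 ± 0.07.

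Myoc, which encodes the secreted glycoprotein myocilin, was higher than in every other group. Its levels were 15.3, 19.6 and 17.6 CPM in the PBS control-diet mice and 26.3, 25.3 and 23.7 CPM in the tau acetate-diet mice (0.53 ± 0.09, adjusted p = 0.0265). The mean was 17.5 ± 2.15 CPM in PBS control-diet, 17.4 ± 0.84 in PBS acetate-diet, 14.6 ± 0.87 in tau control-diet and 25.1 ± 1.30 in tau acetate-diet mice (SD, n = 3 each). Against tau control-diet mice the log2 fold change was 0.78 (adjusted p = 0.00244) and against PBS acetate-diet mice 0.53 (adjusted p = 0.0593, edgeR quasi-likelihood test), comparisons that share the 3 tau acetate-diet mice. Its upstream 250 bases (RefSeq, GRCm38.p6, chr1:162638900-162639149, plus strand) are shown as those of the gene that stood apart from all 3 other groups, with the TATA letters TATAAA in capitals, 26 before the start:
Myoc: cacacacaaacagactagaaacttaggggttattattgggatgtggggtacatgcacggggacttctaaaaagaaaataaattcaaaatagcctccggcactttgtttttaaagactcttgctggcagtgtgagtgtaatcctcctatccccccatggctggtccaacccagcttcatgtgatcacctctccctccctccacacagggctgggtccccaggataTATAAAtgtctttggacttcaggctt
TATAAA on either strand stood before 7.58% of the higher genes and 7.97% of all genes tested.

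The lower genes with the smallest p differed in level and encode proteins of several kinds. Luzp2 (chr7:54835498-55268885), a leucine zipper protein gene, fell from 182.0, 159.9 and 159.2 CPM to 130.2, 127.1 and 126.7 CPM (-0.38 ± 0.05, adjusted p = 0.0121), and was the gene least dependent on any 1 mouse, called in 11 of the 12 fits with a mouse left out. Rnf11, a RING ubiquitin ligase gene, had 218.1, 215.7 and 232.9 CPM against 168.2, 180.5 and 174.5 CPM (-0.35 ± 0.05, adjusted p = 0.0121). The zinc finger gene Zfp367 had a mean of 22.3 ± 0.75 CPM against 14.9 ± 0.54 CPM (SD, n = 3 each; -0.58 ± 0.09), and no mouse of either group came near the other group. Mylk, the myosin light chain kinase of smooth muscle, had 30.9, 30.0 and 35.8 CPM against 24.1, 20.4 and 17.4 CPM (-0.63 ± 0.11, adjusted p = 0.0265). It was the only one of 11 mural cell genes to pass, 10 of the 11 lay above 0, and the list's median was 0.28, so Mylk went against its list.

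Further lower genes were Igip, an IgA-inducing protein gene, at -0.43 ± 0.07, Fam19a1, a secreted neuronal protein gene, at -0.40 ± 0.06, Pgm2l1, which makes glucose bisphosphate in the brain, at -0.41 ± 0.07, the phospholipid flippase subunit Tmem30a at -0.33 ± 0.05, Mtpn at -0.26 ± 0.04, and the RNA-binding Celf4 at -0.31 ± 0.06. Cd200, whose protein on neurons holds microglia at rest, had 70.4, 65.4 and 71.4 CPM against 56.0, 55.8 and 50.4 CPM (-0.35 ± 0.06, adjusted p = 0.0265). Of these 24 leading genes, 18 were called with the GC and length trend removed, 8 higher and 10 lower, and Igfbp4, Zbtb16, Kcnh3, Ift122, Tmem30a and Mtpn were not.

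**Figure D3:**
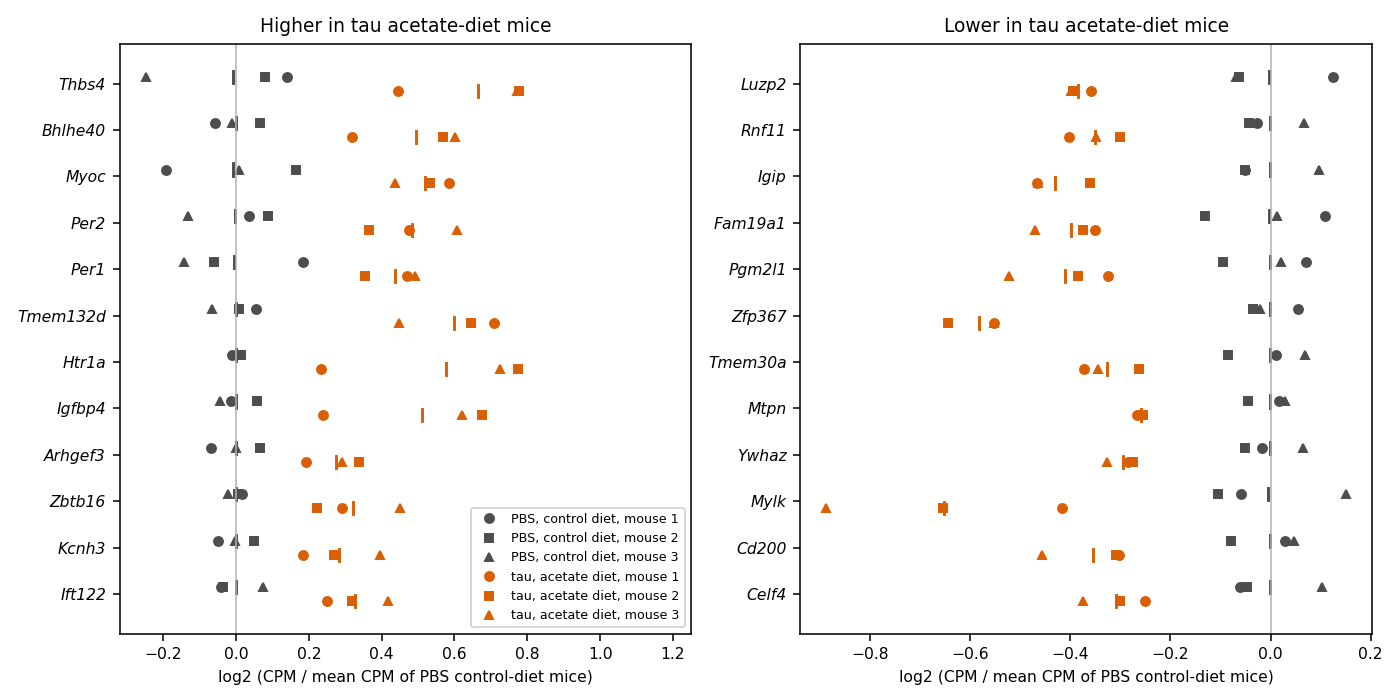
Level of the 12 higher (left) and 12 lower (right) genes with the smallest p in each mouse, as log2 of CPM over the mean of the PBS control-diet mice, with each symbol a mouse and each tick a group mean. The 24 were chosen among called genes in which the 3 and 3 mice do not overlap. Tau acetate-diet mouse 1 is the nearest to the controls in Thbs4, Bhlhe40, Htr1a and Igfbp4.

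Synaptic vesicle genes lay mostly below 0. Of 24 tested, 20 were below 0 with a median of -0.13, 10 had an unadjusted p below 0.05 in that direction and 1 was called, Snap25, the membrane SNARE of transmitter release. Snap25 had 2775, 2544 and 2929 CPM against 2211, 2080 and 1902 CPM (-0.41 ± 0.08, adjusted p = 0.0284) that was also called with the trend removed. Syn2 and Rims1 were at -0.31 and -0.32 and did not pass. Potassium channel genes split: of 30 tested, Kcnh3, Kcnq3 (0.44 ± 0.10) and Kcnh7 (0.86 ± 0.20) were called higher and Kcnc2 (-0.38 ± 0.07) and Kcna1 (-0.27 ± 0.07) lower, with a median of 0.04. With the GC and length trend removed Kcnh3 and Kcna1 were no longer called, and the median was -0.01. Among 29 glutamate receptor genes 1 was called, the presynaptic receptor Grm7, at -0.27 ± 0.06, and among 19 GABA receptor genes 0 were, with 2 in each direction at an unadjusted p below 0.05.

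Some gene families were picked out by symbol after the values were seen and are given as counts. Of all genes tested 1.21% were called lower and 0.617% higher. Of 33 ubiquitin-conjugating enzyme genes named Ube2, 8 were called lower and 26 lay below 0, with a median of -0.10, but with the GC and length trend removed 0 were called while the median stayed at -0.10. Of 6 genes of 14-3-3 proteins, phosphoserine-binding adaptors that include partners of tau, all lay below 0 and Ywhaz (-0.29 ± 0.05) and Ywhah (-0.33 ± 0.08) were called with and without the trend. Of the 4 neurofilament and internexin genes, which build the axonal cytoskeleton, all lay below 0 and Ina (-0.23), Nefl (-0.25) and Nefh (-0.34) were called, Ina and Nefh also with the trend removed. Both Notch1 (0.28) and Notch2 (0.32), of 4 Notch receptor genes that all lay above 0, were called higher, and neither with the trend removed. Other families were mixed or had few calls. Of 54 Rab GTPase genes 1 was called higher and 4 lower, and of 77 Kcn potassium channel genes 3 and 3. Of 14 Krüppel-like factor genes Klf15 was called higher and Klf8 lower. Of 19 V-ATPase genes 2 were called lower, as were 2 of 40 DNAJ co-chaperone genes, and 0 higher.

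The 5 genes with a log2 fold change of at least 1 in size were scarce, and were named for their size after it was seen. Col8a1, a short-chain collagen, had 0.349, 0.232 and 0.474 CPM against 0.843, 1.03 and 4.50 CPM, so that tau acetate-diet mouse 3 stood far above the other 5 mice (2.51 ± 0.64). Trabd2b was at 1.27, the antisense transcript Gm16287 at 1.80, the calcium channel gene Cacna1s at -2.10 and C4bp, a complement inhibitor, at -2.30. The group means of Gm16287, Cacna1s and C4bp were all under 1 CPM, and 0 of the 5 were called with the GC and length trend removed.

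The summed CPM of markers of the hippocampal pyramidal fields did not overlap between the groups, though 1 single marker passed. All 8 CA1 markers lay above 0, with a median log2 fold change of 0.61, and 5 had an unadjusted p below 0.05, yet 0 were called. Their summed level was 719, 622 and 540 CPM in the PBS control-diet mice and 782, 1074 and 1132 CPM in the tau acetate-diet mice, without overlap. The mean of their log2 CPM, with each gene centred over the 12 mice, did overlap, at -0.63 to -0.21 against -0.23 to 0.38. Gpr161 was the largest, with 62.2, 52.7 and 46.3 CPM against 70.7, 103.2 and 110.8 CPM (0.81 ± 0.23, adjusted p = 0.15). Conversely 10 of 11 CA2 and CA3 markers lay below 0, with a median of -0.51, a summed level of 905 to 1001 CPM against 608 to 798 CPM, and 1 call, the transcription factor Trps1, at 70.1, 58.5 and 62.5 CPM against 45.8, 43.0 and 36.7 CPM (-0.61 ± 0.13, adjusted p = 0.0562). In such dissected tissue, fewer cells of a type and less RNA per cell cannot be told apart. The medians kept their sign with any mouse left out, at 0.50 to 0.77 for CA1 and -0.66 to -0.43 for CA2 and CA3, and stood at 0.59 and -0.56 with the GC and length trend removed, when Trps1 was no longer called. Against the same controls the CA1 median was 0.55 for tau on the control diet and 0.69 for acetate after PBS. For CA2 and CA3 these were -0.34 and -0.67. Tau acetate-diet mice differed less from those 2 groups, with CA1 medians of 0.12 and -0.06 and CA2 and CA3 medians of -0.17 and 0.17. The shift from the controls was thus not particular to the combined state. These marker levels moved with the groups in the same mice as the gene calls above, and their part in those calls was not tested.

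Tissues that border the hippocampus varied from mouse to mouse. Of 10 thalamic markers 9 lay below 0, with a median of -0.65, but their summed level of 418 CPM in PBS control-diet mouse 2 stood above 159 and 202 CPM in the other 2 controls and 144 to 179 CPM in the tau acetate-diet mice, and without that mouse the median was 0.05. Prkcd, a kinase gene strong in thalamic relay neurons, had 51.9, 130.0 and 77.4 CPM against 41.4, 23.7 and 22.7 CPM (-1.54 ± 0.51, adjusted p = 0.222). The 12 choroid plexus markers had a median of 0.37 that rested on tau acetate-diet mouse 3, in which they summed to 906 CPM against 361 and 385 CPM in the other 2 and 366 to 426 CPM in the controls. Without it the median was -0.49. Meningeal and collagen markers lay above 0 in 12 of 12, with a median of 0.39 and a range of 0.31 to 0.62 with 1 mouse left out, and summed to 258 to 330 CPM against 232 to 249 CPM. The mean of their centred log2 CPM did overlap, at -0.08 to 0.46 against -0.36 to 0.01. Against the same controls their median was 0.42 for tau on the control diet and 0.07 for acetate after PBS. None of these lists had a called member, and 3 meningeal, 1 choroid plexus and 1 thalamic marker had an unadjusted p below 0.05.

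**Figure D4:**
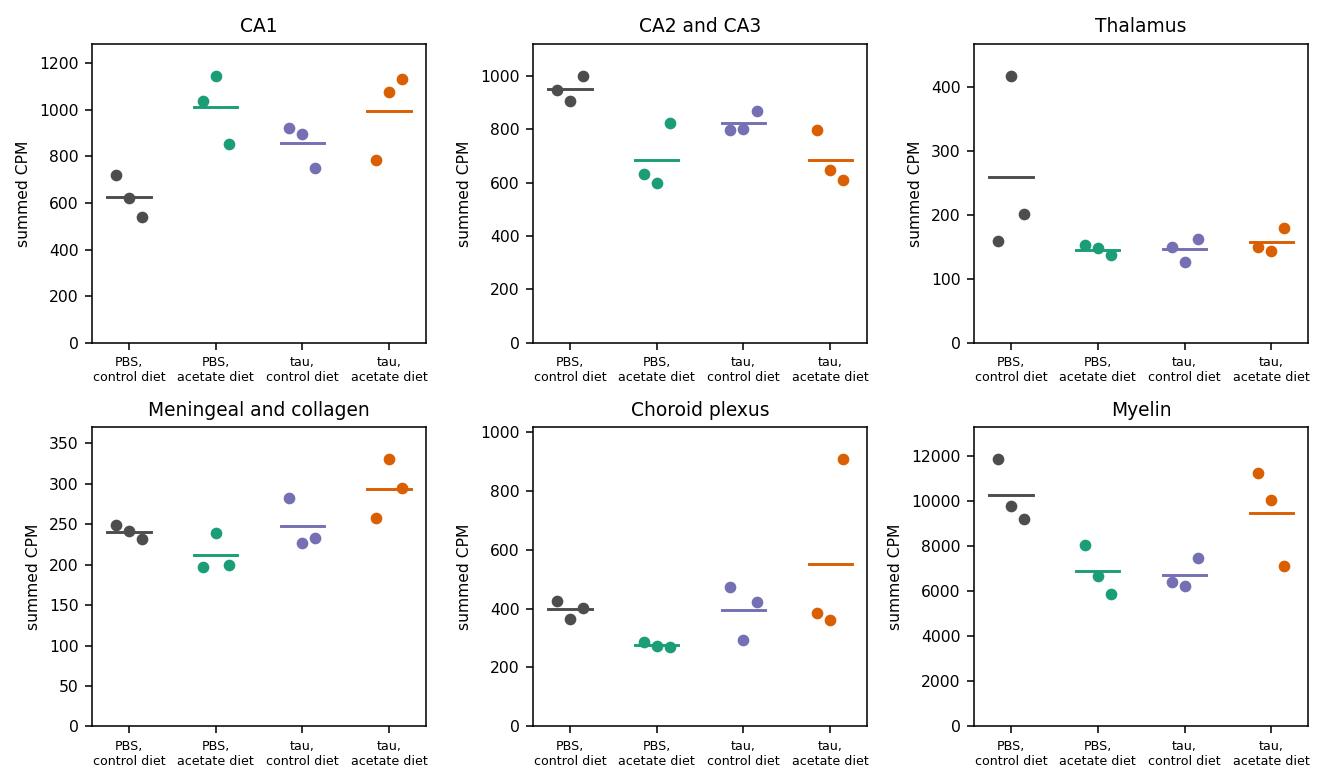
Summed CPM of 6 marker lists in each of the 12 mice, by group, with a line at each group mean. CA1 markers were higher and CA2 and CA3 markers lower in tau acetate-diet than in PBS control-diet mice without overlap in summed CPM. The PBS acetate-diet and tau control-diet mice stood apart from the PBS control-diet mice in the same directions. A single mouse set the thalamic and the choroid plexus difference.

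In the glial and vascular lists, the precursor glia marker Cspg4 and the mural gene Mylk were called, Mylk alone also with the GC and length trend removed. The 24 myelin genes had a median of -0.07, which was 0.04 without PBS control-diet mouse 1 and 0.08 without tau acetate-diet mouse 3, with Mbp, a main protein of the sheath, at -0.11 ± 0.18, and their summed level of 7112 to 11267 CPM in tau acetate-diet mice overlapped that of 9196 to 11853 CPM in PBS control-diet mice. At the steps between, the same genes had a median of -0.59 from PBS to tau with control chow and 0.50 from control chow to acetate after tau. By the other order it was -0.52 for acetate after PBS and 0.46 for tau on the acetate diet. For acetate after PBS 9 of the 24 were called, all lower, where 8.84% of all genes tested were called. These values share mice with this comparison and sum to it gene by gene. Motile cilia genes followed a like course, with a median of -0.11 here (0.10 without tau acetate-diet mouse 2), -0.92 for tau on the control diet and 0.82 for acetate after tau. By the other order it was -1.30 for acetate after PBS, with 11 of 12 called lower, and 1.13 for tau on the acetate diet. Homeostatic microglia genes had a median of 0.11, with 5 of 12 at an unadjusted p below 0.05 and none called, and the microglial receptor Siglech at 0.34 ± 0.10 (adjusted p = 0.13). Type I interferon genes lay above 0 in 13 of 14, with a median of 0.25 that was -0.01 without tau acetate-diet mouse 1. Endothelial markers had a median of 0.19, dentate granule markers 0.17, homeostatic astrocyte markers 0.06 and reactive astrocyte genes 0.11, and none had a called member. The dentate granule median was -0.01 without PBS control-diet mouse 1, and the reactive astrocyte median -0.07 without tau acetate-diet mouse 1.

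Of the genes closest to the manipulations none passed the test. Acss2 had 61.7, 54.1 and 53.6 CPM against 57.7, 53.3 and 50.5 CPM (-0.07 ± 0.07, adjusted p = 0.731), and its groups overlapped. Mapt, the mouse's own tau gene, had 652.8, 611.7 and 619.5 CPM against 609.5, 597.1 and 547.8 CPM (-0.10 ± 0.05, adjusted p = 0.375), a small gap without overlap. Scd1, the desaturase of fatty acid synthesis, had 213.7, 210.5 and 195.5 CPM against 219.5, 199.4 and 187.8 CPM (-0.03 ± 0.06, adjusted p = 0.88), though it stood at -0.37 for either manipulation alone against these controls. The activity-induced factor Npas4 was at -0.43 ± 0.37 and the ciliary transcription factor Rfx3 at 0.03 ± 0.11, neither near the threshold. Acetate and acetyl-CoA genes, 17 in all, had a median of 0.00 and no call, with the mitochondrial synthetase Acss3 the largest at 0.95 ± 0.28 (adjusted p = 0.13).

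The remaining metabolic and regulatory lists gave few calls. Of 18 fatty acid synthesis genes Thrsp, a lipogenesis regulator, was called at 0.40 ± 0.10, and of 23 cholesterol genes the sterol transporter Stard4 was called at -0.42 ± 0.10, with 19 of the 23 below 0 and a median of -0.10. Among 27 histone acetylation writers, erasers and readers the median was 0.00, 5 had an unadjusted p below 0.05, all higher, and none was called. Of 33 tau and Alzheimer risk genes Clu, the lipid carrier clusterin, was called, with 791, 793 and 803 CPM against 892, 877 and 936 CPM (0.18 ± 0.05, adjusted p = 0.0854). Proteasome genes lay below 0 in 24 of 26 with a median of -0.09, oxidative phosphorylation genes in 29 of 36 with a median of -0.05, and ribosomal protein genes above 0 in 26 of 34 with a median of 0.07, without a call. Cspg4 (0.33), Retreg1 (-0.32) and Rbm25 (-0.17) were the calls among precursor glia, lysosome and autophagy, and splicing genes. With the GC and length trend removed Thrsp, Stard4, Clu, Cspg4, Retreg1 and Rbm25 were no longer called. Immediate early genes had a median of -0.04, disease-associated microglia genes 0.14, complement and MHC class I genes 0.11, inhibitory neuron markers 0.08 and neuropeptide genes 0.11, with 0 calls and, at an unadjusted p below 0.05, 4 of 18, 4 of 14, 2 of 12, 4 of 13 and 6 of 19 genes. The median was 0.03 for immediate early genes without PBS control-diet mouse 1 or tau acetate-diet mouse 3, and -0.045 for complement and MHC class I genes without tau acetate-diet mouse 1. In all, 14 of the 43 lists held a called member and 29 did not.

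**Figure D5:**
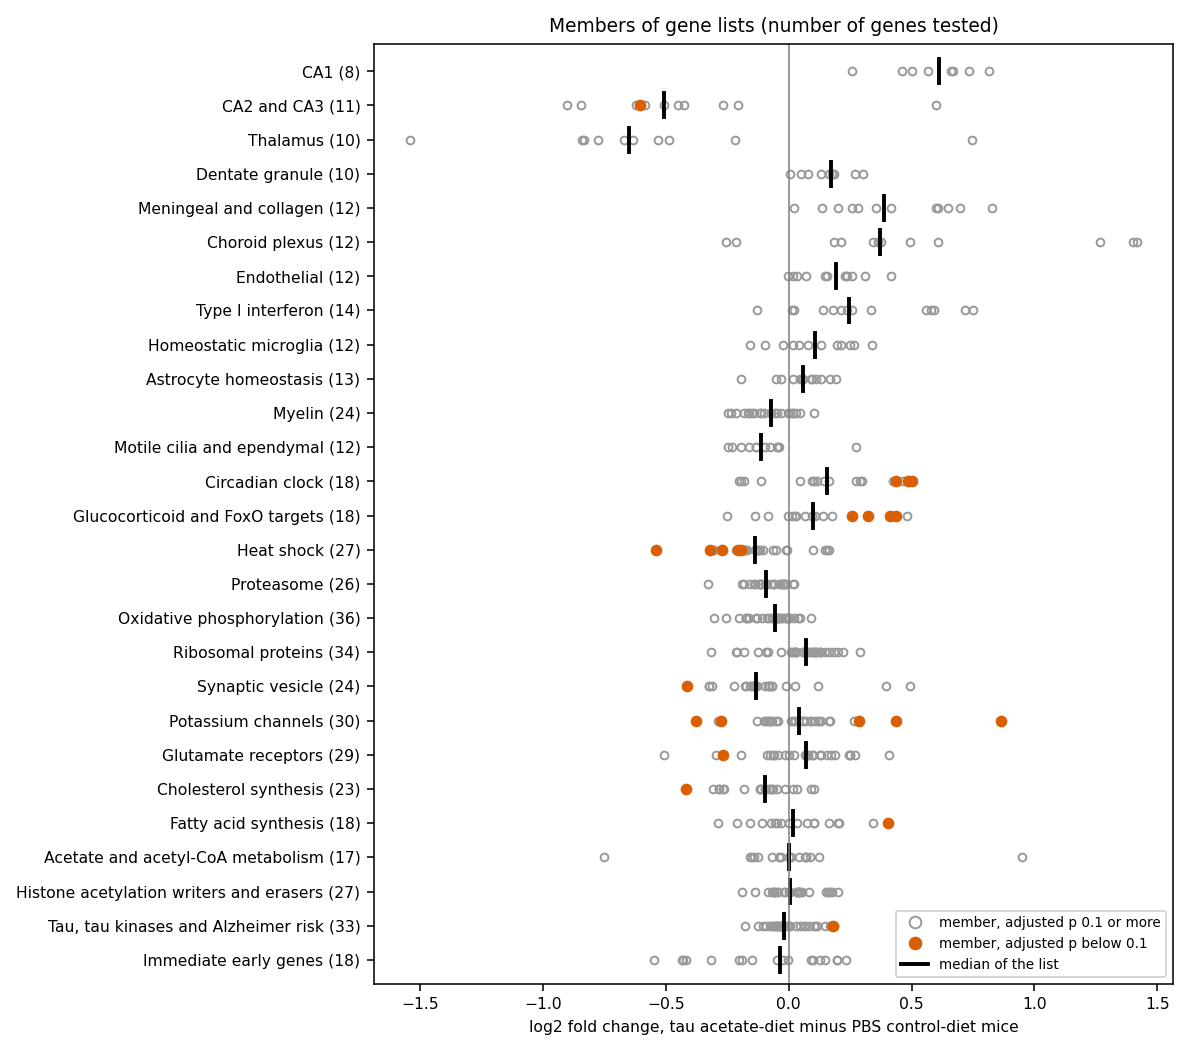
Log2 fold change of every tested member of 27 gene lists between tau acetate-diet and PBS control-diet mice, with members at adjusted p below 0.1 filled in orange and the list median as a bar. CA1 markers stood at a median of 0.61, CA2 and CA3 markers at -0.51, and heat shock genes at -0.14.

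The path from the control to the combined state can be read in either order, since the 4 groups share these mice and the steps sum to the whole. For the 91 higher genes the median log2 fold change was 0.33 in the whole comparison, made of 0.19 for tau on the control diet and 0.13 for acetate after tau, or of 0.27 for acetate after PBS and 0.07 for tau on the acetate diet. For the 179 lower genes it was -0.27, made of -0.10 and -0.17 by the first order and -0.22 and -0.04 by the other. Medians of steps need not add exactly. For acetate after PBS, 57 of the 91 higher and 131 of the 179 lower genes were also called, where 8.84% of all genes tested were. That comparison shares the PBS control-diet mice with this one. For tau on the control diet 0 of the 91 and 0 of the 179 were called. Beside Myoc, 4 called genes also passed in a comparison of tau acetate-diet mice with a group that shares 1 manipulation. The RNA-binding Rbm25 passed against PBS acetate-diet mice (-0.26, adjusted p = 0.0593), and Luzp2 (-0.30, adjusted p = 0.0676), the transcriptional repressor Dr1 (-0.37, adjusted p = 0.0676) and the arrestin-domain gene Arrdc2 (0.53, adjusted p = 0.0844) against tau control-diet mice, all by the edgeR quasi-likelihood test. These comparisons share the tau acetate-diet mice, and 20 and 9 genes passed in them over the whole table, 0.136% and 0.0611% of those tested. Of all genes tested, 8.84% passed for acetate after PBS, 0.0136% for tau on the control diet, and 1.56% for the difference between the 2 diet effects.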

How the data were processed

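Gene counts from polyadenylated RNA of the right dorsal hippocampus of 12 mice were used as deposited, with no normalisation. Per the labels and the submitters' processing notes, directional libraries were handled with STAR 2.5.2a, SAMtools 1.1 and HTSeq 0.9.1 on GRCm38 to give the read counts per gene that the authors deposited. Per the study's methods, HTSeq counted exon reads per gene with the reverse-strand setting, which suits directional libraries. The labels and the methods name different library kits, and the strand of the reads was not tested.

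Genes were kept by filterByExpr (minimum count 10, minimum total 15), scaled by TMM and fitted in edgeR 4.0.16 (R 4.3.3, limma 3.58.1) with 1 mean for each of the 4 groups over all 12 mice, robust quasi-likelihood dispersion and 8 residual degrees of freedom. Tau acetate-diet minus PBS control-diet mice was the contrast, with Benjamini-Hochberg adjusted p below 0.1 over all 14742 genes. CPM use the TMM-scaled totals, and library totals of 12983233 to 20218340 counts set the precision. Errors of log2 fold changes are standard errors of the fit. The script was tested on simulated data. Replicates differed by more than counting noise, with a chi-square per degree of freedom of at least 3.42.

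Named genes were the 12 higher and 12 lower with the smallest p among called genes with a group mean of at least 1 CPM, a short set of genes of acetate use, tau and memory, and called members of 43 gene lists. Members, lists and tests were chosen with earlier results of these data known, and further genes are named as picked after their values were seen. GC content and transcript length came from the GRCm38 annotation, with spline trends of 4 degrees of freedom. Promoters came from RefSeq (GRCm38.p6). Alternatives included DESeq2 1.42.0, other filters and scalings, a replicate block and leaving out each mouse.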

Additional observations from a re-analysis of the deposited data

Results flagged for a closer look

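For 9 genes that the report names or that belong to its gene lists, the acetate diet had another effect after tau than after PBS (edgeR quasi-likelihood test of the interaction, adjusted p below 0.1), a test that uses all 12 mice. Of the 14742 genes tested 230 passed it, or 1.56%, so such a difference is not particular to the 9. Bhlhe40 had a difference of -0.54 on the log2 scale (adjusted p = 0.0511), with a diet effect of 0.07 after tau and 0.61 after PBS. For Per1 the difference was -0.44 (adjusted p = 0.0917), from 0.14 after tau and 0.58 after PBS, and for Kcnh3 it was -0.40 (adjusted p = 0.0511), from 0.02 and 0.42. Myoc went the other way, with a difference of 0.78 (adjusted p = 0.03) from 0.78 after tau and 0.00 after PBS. Scd1 had a difference of 0.71 (adjusted p = 0.0024), from 0.34 after tau and -0.37 after PBS. Fbxo32 had one of 0.66 (adjusted p = 0.0466), from 0.43 and -0.23. Retreg1, an endoplasmic reticulum autophagy receptor, had one of 0.53 (adjusted p = 0.0466), from 0.04 and -0.49. The lipid droplet gene Plin4 had one of 1.80 (adjusted p = 0.0261), from 1.33 and -0.48, and the complement gene C3 one of 3.60 (adjusted p = 0.0634), from 0.70 and -2.90.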

How the results depend on the processing

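The 270 calls, 91 higher and 179 lower, became 621 (231 higher, 390 lower) with DESeq2 on all 12 mice, where 249 of the 270 were called and the other 21 had no adjusted p, and 484 (178 and 306) with DESeq2 on the 6 compared mice. At adjusted p below 0.05 there were 108 (31 and 77), and with the GC and length trend removed, an alternative chosen after seeing the data, 54 (16 and 38). The cause of these shifts was not tested. With 1 mouse left out the count ran from 0 to 358, from 0 to 167 higher and from 0 to 231 lower; it was 75 without PBS control-diet mouse 1, 1 without PBS control-diet mouse 3, 168 without PBS acetate-diet mouse 1, and 143 and 0 without tau acetate-diet mice 2 and 3. With the replicate block 234 were called (82 and 152), but the numbers did not pair the mice: 2 of 18 same-numbered pairs of mice had a correlation of deviations above 0.1, with a range of -0.10 to 0.14. DESeq2 size factors, no filter, edgeR on 6 mice, thinned counts and no robust fit gave 240 to 302 calls. Of the 240 from edgeR on the 6 compared mice, 181 were among the 270. The other settings in that range shared 218 to 257 calls with the 270. Among named genes, 8 that were not called changed sign with 1 mouse left out: Acss2 (-0.12 to 0.0053), Scd1 (-0.086 to 0.026), Rfx3 (-0.092 to 0.13), Tcf7l2 (-1.50 to 0.26), Cxcl10 (-0.86 to 1.66), Rsph1 (-0.13 to 0.56), Alas2 (-0.20 to 0.090) and Calb2 (-0.37 to 1.18), and Alas2 also with thinned counts (0.12).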
